A study of Mus musculus with 12 samples.

Results

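ATF4 is the transcription factor through which cells answer amino acid shortage, misfolded protein and other stresses. Kinases that phosphorylate the translation factor eIF2 slow protein synthesis as a whole, while the ATF4 message is translated more, so that the level of Atf4 mRNA is not a readout of the protein. ATF4 then switches on genes that make amino acids, carry them into the cell and, if stress goes on, promote cell death. Tumor cells are known to draw on this program to feed growth, and in mammary epithelium amino acid carriers also serve milk protein synthesis.

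The 10 genes described here were taken by name from the count table, as genes of the ATF4 pathway and its amino acid carriers. They are the factor Atf4 itself, its targets Ddit3, Trib3, Chac1, Asns and Sesn2, and the carriers Slc7a11, Slc7a5, Slc3a2 and Slc7a1. All 10 were among the 16411 genes of the table, and all 10 passed the expression filter that left 13191 genes for testing.

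RNA came from 6 mammary tumors and from 6 pieces of benign mammary tissue, all from female mice of the MMTV-Neu-NDL-YD5 transgenic genotype on an FVB background, untreated. The MMTV promoter drives an activated HER2 receptor in mammary epithelium, so the benign tissue carries the transgene too and is tissue without a visible tumor rather than wild-type gland. Both are whole tissue, and the benign pieces are fat pads with all their cell types. Ages are not given in the labels. The methods call the 6 samples of a group biological replicates and take tumors and benign tissue from different mice. Neither the labels nor the methods say whether each tumor came from its own mouse.

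Total counts ran from 5240853 to 8170687 in benign tissue and from 6111393 to 8588567 in tumors. Levels are CPM, the usual measure of counts scaled to library size, here after TMM scaling, and log2 fold changes are tumor over benign from edgeR's quasi-likelihood test, called at an adjusted p-value under 0.1. Erbb2, which encodes HER2, stood at 56.8 ± 11.2 CPM on average in the benign group and at 7411 ± 5090 CPM in the tumor group (SD, n = 6 per group), without overlap. The tissue labels were checked against cell type markers. The summed level of 8 luminal epithelial markers was 938 to 2476 CPM in benign samples and 2619 to 4371 CPM in tumors, with 6 of the 8 higher, Krt7 not called and Krt19 lower (log2 fold change -4.74). The sum of 8 adipocyte markers was 11954 to 25236 CPM in benign tissue and 199.7 to 333 CPM in tumors, and none of them was at 0 in any tumor. Every tumor was below every benign sample for 6 of 6 endothelial, 7 of 7 fibroblast and 6 of 6 basal epithelial markers. Of 7 macrophage markers 6 were lower. The sum of 8 lymphocyte markers was 1243 CPM in benign sample 1. It was 20.3 to 34.9 CPM in the other benign samples and 14.2 to 36.2 CPM in tumors. In bulk tissue, fewer cells of a type and less RNA per cell cannot be told apart, and the part of this change of makeup in the results below was not tested.

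The benign samples also differed among themselves. The methods take benign tissue from the place furthest from the tumor, so the site of the fat pad can differ between samples. The sample titles do not name the site, and its part in the results was not tested. The sum of 10 skeletal muscle markers was 53819, 34485 and 88800 CPM in benign samples 3, 4 and 6, and 17.6 to 359.6 CPM in benign samples 1, 2 and 5. In tumors it was 1.2 to 149.6 CPM, and 9 of the 10 markers were at 0 in at least 1 tumor. The sum of 5 brown fat markers was highest in benign samples 4 and 6, at 2631 and 633 CPM, against 25.0 to 144 CPM in the other benign samples. Results are therefore given with all 12 samples and, where it matters, without benign samples 3, 4 and 6. Benign sample 1, with the high lymphocyte marker sum, stays in both.

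ATF4 binds DNA as a dimer with C/EBP proteins at a composite element whose core was searched as TGATGNAA on both strands, from 250 bases before to 50 bases after each RefSeq gene start (GRCm38.p6). Of the 10 genes, 9 matched a window by symbol and Slc7a5 did not. The core lay in the windows of 4 of these 9 genes, Trib3, Chac1, Asns and Slc7a11, against 4.51% of all 27025 genes with a window. Of the 10480 tested genes with a window, 2.79% held the core. The windows of Atf4, Ddit3, Sesn2, Slc3a2 and Slc7a1 did not hold these letters. The 4 stretches that follow are shown because the genes that share the element did not move together, as the values further on show. Each runs 5′ to 3′ on the strand of the gene, with the core in capitals.

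Trib3 (chr2:152344028-152344057, minus strand): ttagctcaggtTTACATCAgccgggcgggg
Chac1 (chr2:119351038-119351067, plus strand): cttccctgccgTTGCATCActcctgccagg
Asns (chr6:7693214-7693243, minus strand): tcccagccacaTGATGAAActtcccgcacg
Slc7a11 (chr3:50443651-50443680, minus strand): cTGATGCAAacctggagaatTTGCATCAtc

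Slc7a11 holds the core on both strands, starting 66 and 47 bases before its gene start. In Asns it starts 23 bases and in Chac1 193 bases before the start, and in Trib3 at base 15 after it. In the GENCODE M21 models of the same genome, the Trib3 gene (chr2:152337422-152344032) starts further downstream and the Asns gene (chr6:7675169-7693254) further upstream, so whether these 2 stretches are transcribed depends on the model. A match of letters is a description of the window and not a measurement of binding.

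In the comparison of tumors with benign tissue, which asks how the program differed in HER2-driven tumors, 4 of the 10 genes were higher (Trib3, Slc7a11, Slc7a5 and Slc7a1) and 2 were lower (Asns and Sesn2). Of all genes tested, 28.2% were higher and 34.8% were lower, so these counts by themselves do not set the 10 genes apart. Atf4, Ddit3, Chac1 and Slc3a2 were not called. The median over all 10 genes stood at 0.054 on the log2 fold change scale, and that over all genes tested at -0.062. For Trib3 every tumor lay above every benign sample, and for Sesn2 every tumor lay below, which was the case for 14.7% and 21.2% of all genes tested. The other 8 genes overlapped between the groups.

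**Figure D1:**
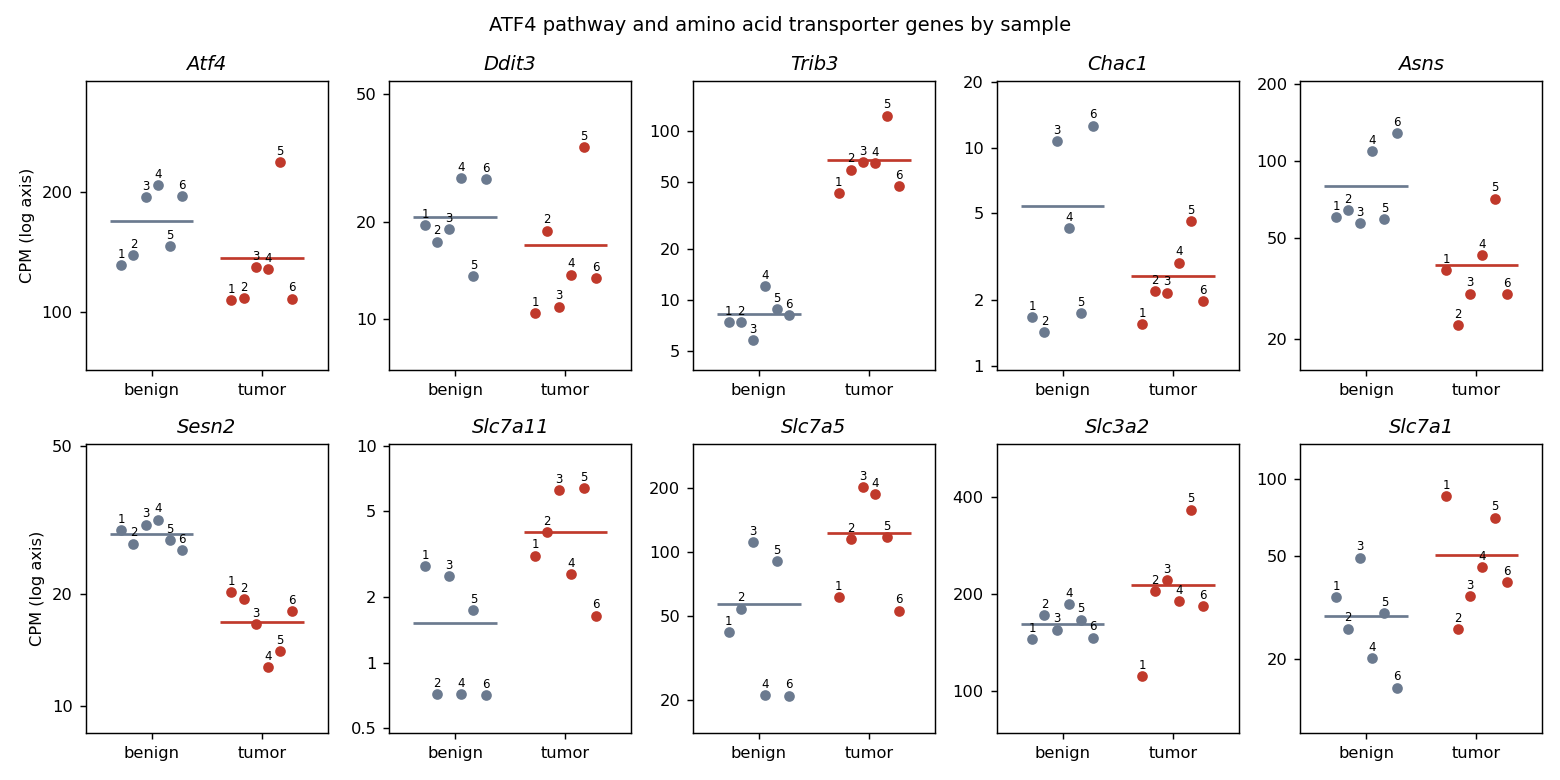
Level of each of the 10 genes in CPM (log axis) in 6 benign samples (grey-blue) and 6 tumors (red); numbers are the sample numbers of the labels and lines are group means. The groups separate for Trib3 and for Sesn2, in opposite directions, and tumor 5 is the highest tumor for 7 of the 10 genes.

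Atf4 (chr15:80255184-80257541, GRCm38) encodes the factor. Its level was 131 CPM in the lowest benign sample, 170 CPM at the median and 208 CPM in the highest, and 107, 118 and 238 CPM in tumors. Of the 6 tumors 5 lay below every benign sample, and tumor 5 lay above them all. Atf4 thus differed by -0.31 in log2 fold change (standard error 0.21), which did not pass (edgeR, adjusted p = 0.23). The call rested on tumor 5, since without it Atf4 was lower by -0.48 (adjusted p = 0.013, and 0.013 to 0.97 over 19 alternatives). Without benign samples 3, 4 and 6, which held the 3 highest benign levels, it was 0.013 (adjusted p = 0.97).

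Ddit3 (chr10:127290774-127296288) encodes CHOP, a partner factor that ATF4 induces and that promotes cell death. GENCODE M21 lists 2 gene IDs under this symbol, and the table has 1 row for it. Its level was 13.6 to 27.4 CPM in benign tissue (median 19.3) and 10.4 to 34.3 CPM in tumors (median 13.6). Tumor 5 was again above every benign sample and 3 tumors were below them all. Within libraries the log2 count ratio of Ddit3 to Atf4 ran from -3.41 to -2.71 in benign tissue and from -3.53 to -2.51 in tumors. On the log2 scale Ddit3 differed by -0.29 with a standard error of 0.30 (edgeR, adjusted p = 0.43). It was -0.55 without tumor 5 (adjusted p = 0.047, and 0.047 to 0.93 over 19 alternatives) and 0.046 without benign samples 3, 4 and 6.

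Trib3 encodes a pseudokinase that ATF4 and CHOP induce and that binds AKT and restrains signaling. Benign samples had 5.80 to 12.1 CPM (median 7.79) and tumors 42.7 to 123 CPM (median 61.6). The lowest tumor, at 42.7 CPM, was thus well clear of the highest benign sample, and tumor 5 was the highest again. Trib3 rose by a log2 fold change of 3.01 (standard error 0.27, adjusted p = 1.0e-06 by edgeR), 8.06-fold. The rise was 2.81 to 3.17 over the 19 alternatives, and 3.11 without benign samples 3, 4 and 6. Its counts were 40 to 71 in benign samples and 274 to 958 in tumors.

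Relative to Atf4 in the same library, a measure that library scaling does not touch, Trib3 had a log2 count ratio of -5.0 to -4.01 in benign tissue and -1.32 to -0.88 in tumors. The means were -4.31 ± 0.39 and -1.05 ± 0.17 (SD, n = 6 per group), a difference of 3.26. Tumor 5, the highest tumor for both genes, did not stand apart in this ratio. These ratios to Atf4 were formed after the levels were known and are given without a test.

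Chac1 (chr2:119351229-119354381) encodes an enzyme that breaks down glutathione and is induced by ATF4 under stress. Its level was 10.7, 4.28 and 12.6 CPM in benign samples 3, 4 and 6, and 1.67, 1.43 and 1.75 CPM in benign samples 1, 2 and 5. The 3 benign samples with the most skeletal muscle transcripts were thus the 3 highest of the benign group, and the part of muscle in this was not tested. Tumors had 1.56 to 4.60 CPM (median 2.18), inside the range of the benign samples. The difference of -1.06 on the log2 scale (standard error 0.57) was not called by edgeR (adjusted p = 0.13) and turned to 0.71 without those 3 benign samples (adjusted p = 0.17). Chac1 was called lower when benign sample 1, 2 or 5 or tumor 5 was left out, with adjusted p-values of 0.086, 0.080, 0.079 and 0.098, and the range over 18 alternatives was 0.079 to 0.41. The counts behind these levels were 9 to 81 in benign tissue and 10 to 36 in tumors.

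Asns encodes asparagine synthetase, which makes asparagine from aspartate and glutamine and is a classical target of ATF4. Benign samples had 57.3 to 129 CPM (median 62.2) and tumors 22.7 to 71.2 CPM (median 33.8). Of the 6 tumors 5 were below every benign sample, and tumor 5 was within the benign range. Benign samples 4 and 6, the samples with the most brown fat transcripts, stood at 110 and 129 CPM, and the other benign samples at 57.3 to 64.1 CPM. Asns fell by a log2 fold change of 1.03 (standard error 0.30, adjusted p = 0.0095 by edgeR), to 0.490 of the benign level. Leaving out benign samples 3, 4 and 6 ended the call (-0.61, adjusted p = 0.12, and 0.0015 to 0.12 over 19 alternatives).

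Sesn2 (chr4:132492032-132510501) encodes Sestrin2, a leucine sensor that holds mTORC1 back when leucine is short. Benign samples lay close together at 26.3 to 31.7 CPM (median 28.8), and tumors had 12.7 to 20.2 CPM (median 17.3). The groups did not overlap, and tumor 5, high for most of the other genes, was among the low tumors at 14.1 CPM. Sesn2 fell by a log2 fold change of 0.78 (standard error 0.13, adjusted p = 2.7e-04 by edgeR). It was lower in all 19 alternatives, by log2 fold changes from -0.81 to -0.65. Its means were 28.9 ± 2.10 and 16.8 ± 2.98 CPM (SD, n = 6 per group).

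**Figure D2:**
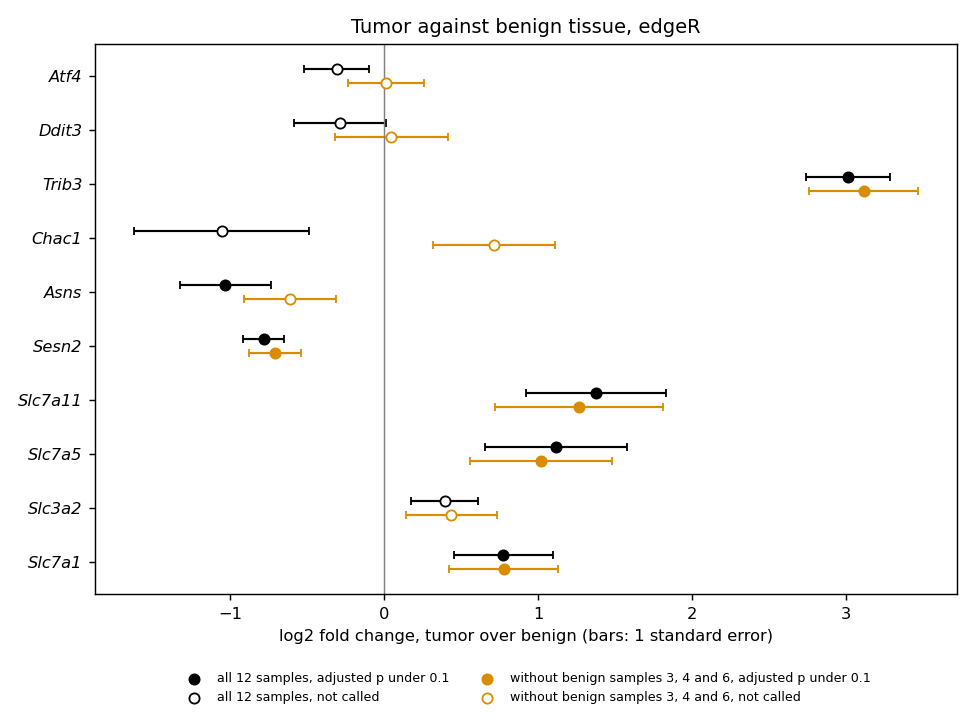
Log2 fold change, tumor over benign, with 1 standard error for the 10 genes, from all 12 samples (black) and without benign samples 3, 4 and 6 (orange); filled points passed an adjusted p of 0.1. Chac1 changes side from -1.06 to 0.71 and Asns loses its call, while Trib3, Sesn2, Slc7a11, Slc7a5 and Slc7a1 keep theirs. Without those samples Slc7a11, Slc7a5 and Slc7a1 pass narrowly (edgeR, adjusted p = 0.082, 0.0945 and 0.0958).

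The carriers were higher in tumors or not called. Slc7a11 (chr3:49892526-50443614) encodes the light chain of the exchanger that imports cystine, the source of cysteine for glutathione, and exports glutamate. Its level was low, with 0.710 to 2.78 CPM in benign tissue (median 1.23) and 1.65 to 6.39 CPM in tumors (median 3.55). Of the 6 tumors 4 were above the highest benign sample, and tumors 4 and 6 were not. Slc7a11 rose by a log2 fold change of 1.38 (standard error 0.46, adjusted p = 0.020 by edgeR, and 0.0066 to 0.082 over 18 alternatives). The counts were 4 to 19 in benign samples and 15 to 52 in tumors, so each level carries a wide counting error. Asking for 10 counts or more in each of the 12 samples removed it and Chac1.

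Slc7a5 (chr8:121881150-121907694) encodes LAT1, the light chain that imports leucine and other large neutral amino acids. Benign samples had 20.9 to 111 CPM (median 47.8) and tumors 52.8 to 202 CPM (median 116). Benign samples 4 and 6 were the lowest, at 21.0 and 20.9 CPM, the reverse of their place for Asns. Of the 6 tumors 4 were above the highest benign sample, and tumors 1 and 6 were within the benign range. Slc7a5 rose by a log2 fold change of 1.11 (standard error 0.46, adjusted p = 0.055 by edgeR). The call was lost without tumor 3, the highest tumor (0.98, adjusted p = 0.102, and 0.020 to 0.102 over 19 alternatives).

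Slc3a2 (chr19:8706882-8723369) encodes the heavy chain CD98, which both of these light chains need to reach the cell surface. Its level was 145 to 186 CPM in benign tissue (median 161) and 111 to 365 CPM in tumors (median 197). Of the 6 tumors 4 were above every benign sample, and tumor 1 was below them all. The log2 fold change of 0.39 (standard error 0.22, adjusted p = 0.14 by edgeR) did not pass. It was called in 6 of 19 alternatives, with the lowest adjusted p (0.015) and a log2 fold change of 0.59 when tumor 1 was left out, and the range was 0.015 to 0.25.

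Slc7a1 (chr5:148327410-148399904) encodes CAT1, the carrier of arginine and lysine, which needs no heavy chain. Benign samples had 15.4 to 49.3 CPM (median 28.1) and tumors 26.0 to 85.3 CPM (median 42.5). Only tumors 1 and 5 were above the highest benign sample. Slc7a1 rose by a log2 fold change of 0.78 (standard error 0.32, adjusted p = 0.056 by edgeR). Benign samples 4 and 6 were again the lowest, and leaving out either ended the call (adjusted p = 0.11 and 0.105, and 0.017 to 0.11 over 19 alternatives).

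Whether the light chains moved more than their shared heavy chain was tested within libraries. The log2 count ratio of Slc7a5 to Slc3a2 was -1.79 ± 1.03 in benign tissue and -0.88 ± 0.74 in tumors (SD, n = 6 per group). For Slc7a11 to Slc3a2 it was -6.63 ± 0.85 and -5.69 ± 0.61. Both differences, 0.91 and 0.93, were within the spread between samples (exact permutation test over 924 regroupings, two-sided, p = 0.11 and 0.061, both 0.11 when adjusted over 2 ratios). For each ratio, 2 of the 6 tumors lay above the highest benign sample. Without benign sample 3 both passed 0.05 (adjusted p = 0.048 for both), with differences of 1.17 and 1.10, and the adjusted p ranged from 0.048 to 0.26 over 16 alternatives.

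**Figure D3:**
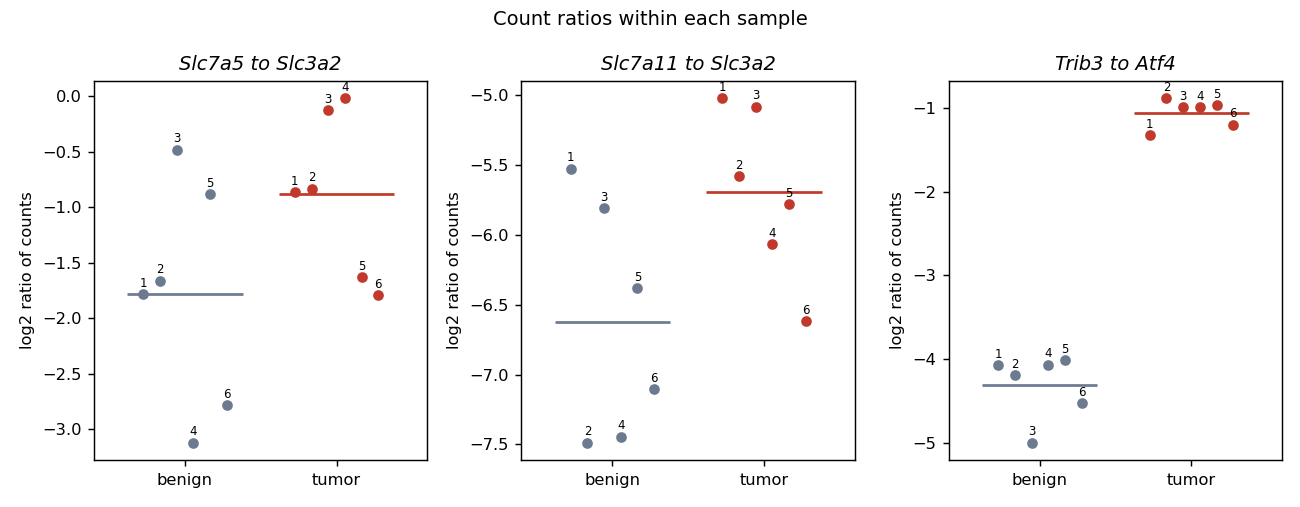
Log2 ratio of counts within each library for Slc7a5 to Slc3a2, Slc7a11 to Slc3a2 and Trib3 to Atf4, in 6 benign samples (grey-blue) and 6 tumors (red), with sample numbers and group means as lines. The light chain ratios overlap between the groups, while the ratio of Trib3 to Atf4 does not, at -5.0 to -4.01 in benign tissue and -1.32 to -0.88 in tumors.

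Some samples were at the edge of their group for several of the 10 genes. Tumor 5 was the highest of the 6 tumors for Atf4, Ddit3, Trib3, Chac1, Asns, Slc7a11 and Slc3a2. Tumor 1 was the lowest for 5 of the 10 genes and the highest for Sesn2 and Slc7a1. Tumor 5 was also the tumor with the highest sums of luminal epithelial (4371 CPM), skeletal muscle (149.6 CPM) and brown fat markers (35.5 CPM). Its sums of macrophage (293.9 CPM) and lymphocyte markers (14.2 CPM) were the lowest of the tumors. The part of these transcripts was not tested. Among benign samples, sample 4 was the highest for Atf4, Ddit3, Trib3, Sesn2 and Slc3a2, and sample 6 was the highest for Chac1 and Asns and the lowest for Sesn2, Slc7a11, Slc7a5 and Slc7a1.

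**Figure D4:**
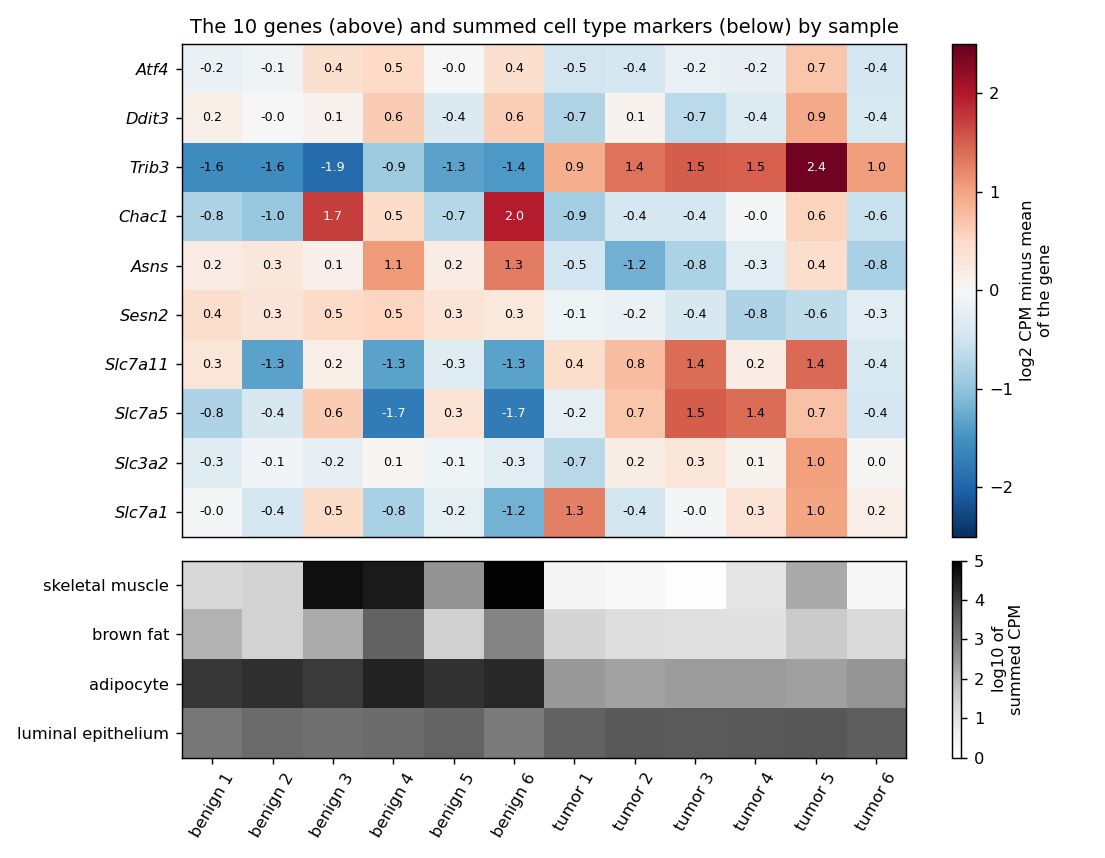
Above, log2 CPM of the 10 genes in 12 samples minus the mean of each gene (color and number); below, log10 of the summed CPM of skeletal muscle, brown fat, adipocyte and luminal epithelial markers. Benign samples 3, 4 and 6 carry the muscle transcripts (34485 to 88800 CPM) and the highest Chac1 among benign samples, and tumor 5 stands out among tumors.

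Levels can be compared between genes only per length of transcript. In CPM per kilobase of annotated exon, the tumor means were highest for Slc3a2 (60.1) and Atf4 (57.9), followed by Slc7a5 (33.1), Trib3 (31.4), Asns (14.3) and Ddit3 (9.89). Sesn2 (4.84), Slc7a1 (4.36), Chac1 (1.58) and Slc7a11 (0.287) were the lowest. In benign tissue the order differed most for Trib3, whose level per kilobase was 3.9, below Ddit3 (12.1) and Sesn2 (8.33). The annotated exons of Slc7a11 and Slc7a1 sum to 13922 and 11530 bases over all transcript forms, which lowers their values on this scale.

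The eIF2 kinases start the response. Of 18 genes for these kinases and for eIF2 regulation, 6 were higher and 5 lower, with a median of 0.0055 on the log2 fold change scale. These shares of 33.3% and 27.8% stand beside 28.2% and 34.8% over all genes tested. By the rule for named genes, Eif2ak2, the kinase PKR that senses double-stranded RNA, rose from 37.6 ± 6.77 to 81.7 ± 34.0 CPM (log2 fold change 1.12), and the adaptor Nck1 rose by 0.99. Impact, an inhibitor of the amino acid sensing kinase GCN2, fell from 51.1 ± 5.0 to 22.6 ± 9.50 CPM (-1.17), and Eif2b3, a subunit of the exchange factor for eIF2, fell by 1.04. The other kinases were named after their values were seen. Eif2ak3, the kinase PERK of the endoplasmic reticulum, had 34.0 ± 4.46 CPM in the benign and 66.7 ± 7.68 CPM in the tumor group, a rise of 0.97 on the log2 scale (edgeR, adjusted p = 1.3e-05), and Eif2ak4, GCN2 itself, from 23.1 ± 4.0 to 40.1 ± 3.56 CPM (0.79, adjusted p = 1.6e-04). Eif2ak1, the heme-regulated kinase, fell by 0.35 (adjusted p = 0.045). Messenger RNA levels say nothing of kinase activity.

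Of 14 other factors of the same bZIP class, 3 were higher and 6 lower (median -0.32), or 21.4% and 42.9%, against the same 28.2% and 34.8% over all genes. Xbp1, a factor of the unfolded protein response, rose from 252 ± 52.9 to 727 ± 310.5 CPM (log2 fold change 1.53), and Cebpb, a dimer partner of ATF4, rose from 129 ± 59.5 to 325 ± 39.1 CPM (1.33). Cebpa, a driver of fat cell differentiation, fell from 473 ± 120 to 28.2 ± 7.64 CPM (-4.07), and Maf fell by 3.16. The other C/EBP genes of this list were named after their values were seen. Cebpg fell by 0.73 (edgeR, adjusted p = 3.7e-04), and Cebpd was not called (0.64, adjusted p = 0.14). The sum of adipocyte markers fell beside Cebpa, and its part was not tested.

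Of 26 further genes reported as ATF4 targets, 24 were tested, of which 8 were higher and 9 lower (median -0.0059). Among all genes tested the shares were 28.2% and 34.8%, against 33.3% and 37.5% here. The largest rises were in Aldh1l2, a mitochondrial folate enzyme (log2 fold change 2.61, 2.5 ± 0.88 to 15.5 ± 9.45 CPM), and Pycr1, an enzyme of proline synthesis (2.32, 7.74 ± 3.99 to 39.2 ± 14.7 CPM). The largest falls were in Stc2, a secreted glycoprotein (-2.97, 160 ± 108 to 20.4 ± 13.8 CPM), and Cbs, the first enzyme from homocysteine toward cysteine (-2.53, 4.15 ± 1.02 to 0.703 ± 0.479 CPM). The serine enzymes Phgdh (-1.51) and Psat1 (-1.25), named after their values were seen, were lower as well. Of the 20 genes of this list with a promoter window, 6 (30%) held the core described above. The share was 4.51% over all genes with a window and 2.79% over tested genes with a window.

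Of 41 other amino acid carriers, 39 were in the table and 32 were tested, of which 8 were higher and 13 lower (median -0.0057). That is 25.0% and 40.6%, where all genes had 28.2% and 34.8%. Slc6a14, a carrier of neutral and cationic amino acids, rose from 1.09 ± 0.98 to 19.9 ± 9.01 CPM (log2 fold change 4.10), and Slc38a1, a glutamine carrier, from 19.3 ± 13.4 to 78.4 ± 36.1 CPM (2.02). Slc7a10, a carrier of small neutral amino acids, fell from 105 ± 31.0 to 0.307 ± 0.257 CPM (-8.28), and Slc36a2, a proton-coupled carrier of small amino acids, from 179 ± 124 to 1.19 ± 1.06 CPM (-7.18). Slc1a5, the glutamine carrier ASCT2, named after its values were seen, fell from 921 ± 247 to 14.5 ± 3.80 CPM (-5.99). In this list 11 of the 32 genes had every tumor below every benign sample and 4 had every tumor above, which held for 21.2% and 14.7% of all genes tested. The adipocyte marker sum moved with the falls, and its part was not tested.

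Of 28 genes that pass amino acid supply to mTORC1, 27 were tested, of which 7 were higher and 8 lower (median 0.040). Their shares of 25.9% and 29.6% were near the 28.2% and 34.8% of all genes. Castor1, an arginine sensor, fell from 10.6 ± 3.19 to 1.41 ± 0.62 CPM (log2 fold change -2.89), and its relative Castor2 from 40.1 ± 18.1 to 6.80 ± 1.90 CPM (-2.56). Sesn3, a relative of Sesn2, rose from 84.5 ± 32.8 to 159 ± 54.1 CPM (0.91), opposite to Sesn2, but was not called without benign samples 3, 4 and 6 (0.56, adjusted p = 0.135, and 0.0028 to 0.135 over 19 alternatives). Sesn1, the third sestrin, named after its values were seen, fell by 1.29 (adjusted p = 7.5e-05 by edgeR).

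**Figure D5:**
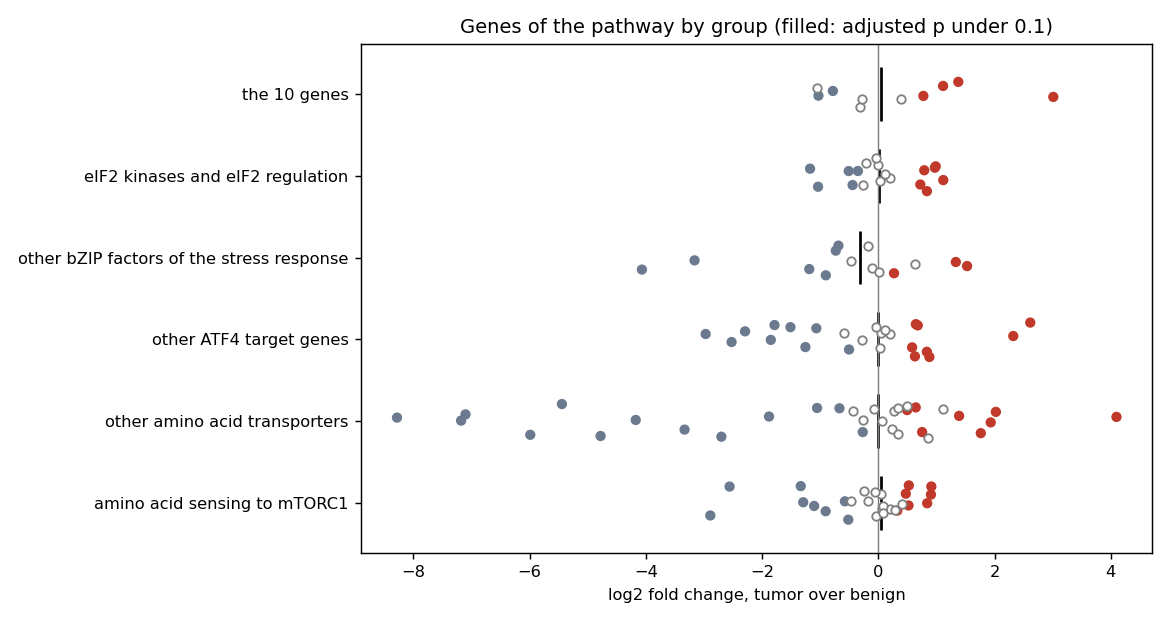
Log2 fold change, tumor over benign, of each tested gene of 6 lists (points, red for higher and grey-blue for lower where filled, open where the adjusted p was 0.1 or more; black lines are medians). All lists hold genes in both directions with medians between -0.32 and 0.054, and the carriers reach from -8.28 to 4.10.

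Without benign samples 3, 4 and 6, the 10 genes had 4 higher and 1 lower, where 26.7% and 28.7% of all genes were called in those directions. The 4 were Trib3, Slc7a11, Slc7a5 and Slc7a1 and the 1 was Sesn2. Slc7a11, Slc7a5 and Slc7a1 passed narrowly there (edgeR, adjusted p = 0.082, 0.0945 and 0.0958). The 5 genes whose profile over the 12 samples was most like that of Atf4, by the root mean square difference of centred log2 CPM among 10811 genes, were Pla2g6 (0.145), St7 (0.153), Ano10 (0.193), Supt3 (0.194) and Ttc33 (0.200). Of the other 9 genes, 7 had a mean of at least 10 CPM and were compared, and the nearest was Ddit3 (0.299), at rank 317.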

How the data were processed

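Per the labels and methods, poly A RNA was sequenced from 6 tumors and 6 benign samples, with Trim Galore, Salmon, DESeq2 and mm10 named. The annotation and tool versions are not given in the sources used here. The table that the authors deposited holds estimated counts, written as integers and unscaled. Each gene has a sum of at least 5 counts, and 0 columns were left unused. Samples were grouped by title.

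Genes passing edgeR's filterByExpr (minimum count 10, minimum total 15) were scaled by TMM and compared, two-sided, by the quasi-likelihood test (edgeR 4.0.16, R 4.3.3), with Benjamini-Hochberg adjustment over 13191 genes and a threshold of 0.1. Log2 values and count ratios used 2 added counts. Standard errors are the log2 fold change over the root of the F statistic. Ratios were compared by exact permutation and read at 0.05. The fits were tested on simulated data. Replicates differed by more than sampling noise (chi-square per degree of freedom of 13.0 or more).

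The members and lists were chosen with earlier results of these data known. Named genes are the 10 members, of each other list the 2 called genes that rose most and the 2 that fell most, and the 5 profiles most like Atf4 (mean of at least 10 CPM); genes outside this rule are marked, and 1 gene that met it is not reported here. Alternatives were DESeq2 1.42.0, other scalings, filters and thresholds, other added counts, the replicate number as a block, and leaving out each sample. Leaving out benign samples 3, 4 and 6 together was chosen after seeing the data. Exon lengths and gene positions come from GENCODE M21 (GRCm38), which may differ from the annotation of the authors, and promoter sequences from RefSeq (GRCm38.p6).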

Additional observations from a re-analysis of the deposited data

Results flagged for a closer look

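Among 24 sets of 6 samples (10 genes on the log2 CPM scale and 2 count ratios, each in benign tissue and in tumors), 1 had a sample far from the others by Dixon's criterion at the 95% level, where chance flags about 5% of sets. It was Atf4 in tumor 5, at 7.90 log2 CPM against 7.02 in the next tumor, a gap of 0.762 of the range of the 6 tumors.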

How the results depend on the processing

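Of 20 alternatives, the number of the 10 genes called higher stayed within 1.5 times the main count of 4 in 19, and was 2 at a threshold of 0.05. The number called lower was 1 in place of 2 without benign samples 3, 4 and 6, and 2 to 5 when single samples were left out, with 5 (Atf4, Ddit3, Chac1, Asns and Sesn2) without tumor 5. Over all genes, 4461 of 13348 were lower without tumor 5. Without benign samples 3, 4 and 6 the log2 fold changes of Atf4 (0.013), Ddit3 (0.046) and Chac1 (0.71) changed sign, and 3 in place of 5 eIF2 genes were lower. The share of all genes called lower also went from 34.8% to 28.7% without these benign samples. With at least 10 counts in every sample, 23 of the other carriers were tested and 7 in place of 13 were lower. That filter took out genes with few counts in any sample, among them Slc7a10 and Slc36a2, both lower in the main fit. Over all genes, 3247 of 11227 were lower under it. When single samples were left out, the difference of the Slc7a5 ratio was 0.64 to 1.17 and that of the Slc7a11 ratio 0.76 to 1.15. With the replicate number as a block, 4 of the 10 genes were higher and 2 lower, as without it, and 7710 genes in all were called in place of 8314. Same-numbered samples correlated at -0.124 to 0.103 in their deviations, and 0 of 12 samples were closest to their own number. Such correlations cannot exclude pairs, since tissues of the same mouse need not share deviations, but the methods take the groups from different mice. Counts of 4 to 81 limit the precision of Slc7a11 and Chac1. Low tumor counts also limit the fold changes of Slc7a10 (0 to 6), Slc36a2 (1 to 24) and Cbs (0 to 11). Benign counts of 0 to 19 do so for Slc6a14.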

Other observations

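The heavy chain Slc3a2 serves more light chains than Slc7a5 and Slc7a11, and these were looked at after their values were seen. Slc7a7, a partner for cationic and neutral amino acids, had 16.0 ± 5.02 CPM in benign and 41.9 ± 18.5 CPM in tumor samples, a rise of 1.39 on the log2 scale (edgeR, adjusted p = 8.8e-04, n = 6 per group). Slc7a6, with a similar role, fell from 38.9 ± 6.15 to 5.96 ± 1.10 CPM (-2.70, adjusted p = 2.8e-08). Slc7a8, which carries neutral amino acids as LAT2, fell from 22.7 ± 5.69 to 14.3 ± 2.93 CPM (-0.67, adjusted p = 0.012). With Slc7a10, lower by -8.28, the light chains of this heavy chain thus lay on both sides, 3 higher and 3 lower in tumors, while Slc3a2 itself was not called. Of all genes tested 28.2% were higher and 34.8% lower, so these counts by themselves do not set the light chains apart. Slc7a2, a relative of Slc7a1 that also carries arginine, fell from 74.2 ± 49.9 to 4.08 ± 0.91 CPM (-4.17).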
